A study of Mus with 4 samples.

Results

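The data describe 37 marker genes of immune cells in the m6A peak lists of interscapular brown adipose tissue (iBAT), 22 of them macrophage genes and 15 lymphocyte genes. The genes were chosen by having a listed peak, out of the 10105 gene symbols found in 1 list or both, so that the presence of a peak is how they entered and not a result. The study compared Wtap flox/flox mice, in which an exon of Wtap is flanked by loxP sites, with Wtap-BKO mice, which carry the same floxed alleles and Ucp1-iCre. Ucp1-iCre is active in cells that express Ucp1, that is in brown adipocytes, so neither macrophages nor lymphocytes are the cells in which the deletion was designed to take place. All mice were of the C57BL/6 strain, 8 weeks old and fed normal chow. For each genotype, RNA pooled from 8 mice gave 1 m6A immunoprecipitate (IP) and 1 input, 4 sequenced samples in all.

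N6-methyladenosine (m6A) is a methyl mark placed on adenosines of mRNA by a writer complex in which METTL3 carries the catalytic activity and WTAP holds the complex at nuclear speckles. Reader proteins that bind the mark affect how long a transcript lasts and how well it is translated. Macrophages of adipose tissue clear dying cells and lipid, present antigen and release cytokines, while T and B lymphocytes carry the clonal antigen receptors. Both cell types lie between the adipocytes and enter any RNA extracted from the whole tissue.

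In m6A MeRIP-seq, fragmented poly(A)+ RNA is precipitated with an antibody against m6A, and a stretch of transcript with more IP than input reads is listed as a peak. A peak in a list from whole tissue needs both the mark and enough transcript, so a change of methylation, fewer or more cells of a type, and less or more RNA per cell cannot be told apart. The lists give no read counts, so the depth is unknown, and a gene without a listed peak may still be expressed and methylated. Peaks were called separately in each genotype. A false discovery rate or a fold enrichment of IP over input was therefore read mainly as a rank within its own list. It is given here as the percentage of that list's peaks with a weaker false discovery rate (rank) or a lower fold enrichment (fold rank). Where the same limit was set on the false discovery rates of both lists, or values of both were printed, the unknown depth limits the comparison. Unless fold enrichment is named, a peak called strong, strongest, weak or weakest is so by false discovery rate. With 1 pool a genotype there is no replicate, no difference was tested, and the 95% Wilson intervals on shares cover counting error only. Peaks of both lists were matched if they had 1 or more exonic bases in common on one strand. The whole lists hold 18400 Wtap flox/flox and 18693 Wtap-BKO peaks, a ratio of 1.02.

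Macrophage genes carried 30 peaks on 17 genes in the Wtap flox/flox list and 52 peaks on all 22 genes in the Wtap-BKO list. Lymphocyte genes carried 11 peaks on 7 genes and 22 peaks on all 15 genes. A peak in Wtap-BKO alone was listed for 5 of the macrophage genes (Ctss, Laptm5, Ly86, Mrc1 and Msr1) and for 8 of the lymphocyte genes (Bank1, Cd2, Cd4, Cd5, Cd79b, Cd8a, Ighm and Skap1). Over all genes with a peak, 13.2% had one in Wtap-BKO alone. No gene (0) of the 37 had a peak in Wtap flox/flox alone, beside 1361 of the 10105 genes with a peak. Under a log10 false discovery rate of −3 in both lists, 1 macrophage gene did. More peaks in Wtap-BKO than in Wtap flox/flox were listed for 12 macrophage and 11 lymphocyte genes, beside 33.2% of all genes, and fewer for C1qa, Mpeg1 and Ebf1. The members were proposed with these lists known, so nothing is read from the distance between their counts and the shares over all genes. Near the limit of the lists, a false discovery rate of 0.05, the weakest macrophage peaks were that of Itgam in Wtap-BKO, at 0.0204, and one of Cd163 in Wtap flox/flox, at 0.00708. The weakest lymphocyte peaks were that of Skap1 in Wtap-BKO, at 0.0186, and those of Lck and Ikzf3 in Wtap flox/flox, at 0.0166.

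**Figure D1:**
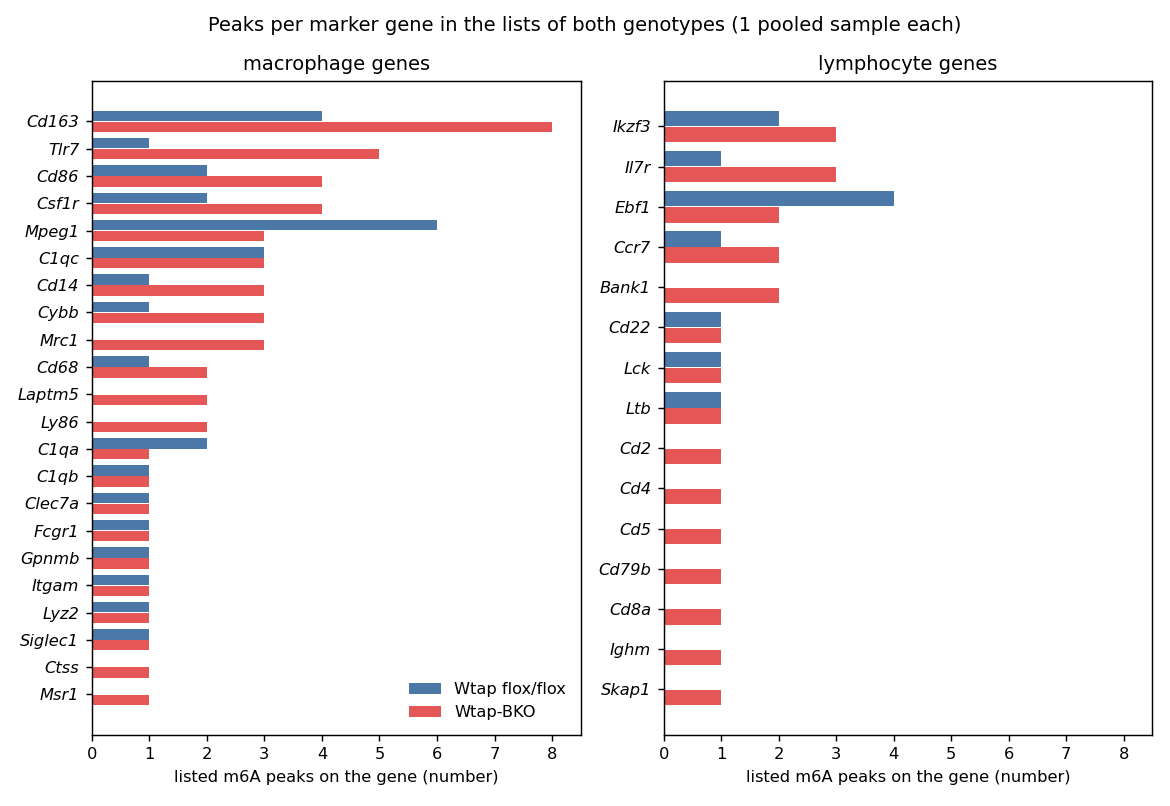
Number of listed m6A peaks on each macrophage gene (left) and lymphocyte gene (right), with Wtap flox/flox in blue and Wtap-BKO in red, from 1 pooled sample a genotype and therefore without error bars. Cd163 has the most Wtap-BKO peaks, 8, and Mpeg1, C1qa and Ebf1 are the genes with more Wtap flox/flox than Wtap-BKO peaks.

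The complement genes C1qa, C1qb and C1qc encode the chains of C1q, the molecule that starts the classical pathway, and lie next to each other on the minus strand of chromosome 4 of GRCm38. Both lists held peaks on all 3, with 6 for Wtap flox/flox and 5 for Wtap-BKO, and each Wtap flox/flox base under a peak was also under a Wtap-BKO peak. On C1qa, the Wtap flox/flox peaks chr4:136895917-136896214 and chr4:136896333-136898803 had ranks of 95.7 and 84.6, and a single Wtap-BKO peak of 1040 exonic bases, chr4:136895917-136898803, joined them at a rank of 99.6 with a listed false discovery rate of 0. On C1qb, the peak of 618 bases in Wtap flox/flox (rank 89.7) and of 735 bases in Wtap-BKO (rank 99.4) ended at the same base near the 3ʹ end of the gene. C1qc had 3 peaks in each list, and the Wtap flox/flox ranks were 67.2, 68.6 and 16.4, and those in Wtap-BKO 95.6, 97.2 and 68.7. By false discovery rate, all 3 genes thus ranked higher in the Wtap-BKO list at every matched peak, and all C1qa and C1qb ranks were 84.6 or above. By fold enrichment C1qb was not among the strong peaks. Its fold rank was 26.7 for the Wtap flox/flox peak, against 40.7 for its Wtap-BKO counterpart. The second C1qa pair fell in fold rank, from 79.9 to 69.6, while every other pair of these genes rose.

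Receptors that recognise microbial molecules came next. Tlr7 (ENSMUSG00000044583), an endosomal receptor for single-stranded RNA, had 1 Wtap flox/flox peak, chrX:167305555-167305733, with a rank of 21.9. In Wtap-BKO, 5 peaks covering 1196 bases lay on Tlr7, where Wtap flox/flox had 179. The Wtap-BKO peak over the Wtap flox/flox one, chrX:167305525-167305793, had a rank of 61.9, and the other 4, at 1817, 2994, 3544.5 and 4587 bp from the 3ʹ end of the gene, had ranks between 32.3 and 48.1. Tlr7 had the largest ratio of covered bases among macrophage genes with a peak in both lists, 6.68. Cd14, a co-receptor for lipopolysaccharide, had 1 Wtap flox/flox peak of 357 bases (rank 60.4) and 3 Wtap-BKO peaks of 238, 476 and 119 bases (ranks 68.3, 90.8 and 12.8), the longest of which covered the Wtap flox/flox peak whole. Clec7a, which encodes the beta-glucan receptor dectin-1, had 1 peak in each list at the same place, chr6:129462760-129462969 in Wtap flox/flox (rank 21.4) and chr6:129462730-129463059 in Wtap-BKO (rank 85.0). Ly86, the MD-1 partner of a Toll-like receptor homologue, had no Wtap flox/flox peak. Its 2 Wtap-BKO peaks lay at opposite ends of the gene, chr13:37345357-37345595 with its centre 131 bp from the 5ʹ end (rank 53.1) and chr13:37418590-37418947 with its centre 267.5 bp from the 3ʹ end (rank 44.4).

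Scavenger and lectin receptors held the gene with the most Wtap-BKO peaks. Cd163 (ENSMUSG00000008845), the receptor that clears haemoglobin bound to haptoglobin, had 4 Wtap flox/flox peaks covering 542 bases and 8 Wtap-BKO peaks covering 2246. The 4 Wtap flox/flox peaks had ranks of 10.9, 12.6, 4.66 and 36.0, and the Wtap-BKO peaks on them 51.4, 36.2, 28.4 and 57.7. Among the 4 Wtap-BKO peaks of Cd163 without a Wtap flox/flox peak on them were the longest, chr6:124311542-124317591 with 777 exonic bases in 3 blocks (rank 57.0), and the strongest, chr6:124330318-124330527 (rank 70.5), whose centre was 106.5 bp from the 3ʹ end. Of the bases under Wtap-BKO peaks on Cd163, 18.8% were also under a Wtap flox/flox peak. Mrc1, the mannose receptor, had no Wtap flox/flox peak and 3 Wtap-BKO peaks, chr2:14238243-14238452 (rank 53.1), chr2:14331070-14331279 (rank 41.4) and chr2:14331489-14331579 (rank 9.54). Msr1, the class A scavenger receptor, had 1 Wtap-BKO peak, chr8:39624116-39624265, with a rank of 39.4, and 6 other Wtap-BKO peaks had the same p-value and fold enrichment. Siglec1, a sialic acid-binding receptor, had a Wtap flox/flox peak of 181 bases (rank 20.7) and a Wtap-BKO peak of 210 bases (rank 57.1) that shared 91 bases and were shifted against each other. Cd68, a lysosomal glycoprotein, had 1 Wtap flox/flox peak, chr11:69665711-69665891 (rank 47.4), which lay inside the Wtap-BKO peak chr11:69665681-69666033 (rank 71.5), and a further Wtap-BKO peak at the 3ʹ end, chr11:69664213-69664392 (rank 42.9).

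Receptors for growth factor, antibody and adhesion included the only macrophage peaks that ranked lower in Wtap-BKO. Csf1r, the receptor for macrophage colony-stimulating factor, had 2 Wtap flox/flox and 4 Wtap-BKO peaks. The peak at the 3ʹ end of Csf1r, 241 bases in Wtap flox/flox versus 271 in Wtap-BKO, had ranks of 38.2 and 84.3. The other Wtap flox/flox peak of Csf1r went the opposite way, with a rank of 69.9 against 28.5 for the Wtap-BKO peak on it. Its centre lay at −875 bp from the annotated 3ʹ end, the negative sign meaning past it, where both lists also have a peak of Hmgxb3 on the opposite strand, so that its assignment to Csf1r is uncertain. Itgam, the integrin chain CD11b, was the other exception, with a Wtap flox/flox peak chr7:128117415-128117594 (rank 33.2) and a Wtap-BKO peak chr7:128117504-128117654 (rank 1.16) that shared 91 bases. Fcgr1, the high-affinity receptor for IgG, had a shorter peak in Wtap-BKO, 329 bases against 388, and still a higher rank, 94.1 against 71.5. Cd86, a ligand that co-stimulates T cells, had 2 Wtap flox/flox peaks (ranks 24.3 and 28.7) that overlap each other in different block structures, and 4 Wtap-BKO peaks covering 869 bases, the strongest with a rank of 63.3.

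Genes of the lysosome and of killing complete the macrophage genes. Mpeg1 (ENSMUSG00000046805), which encodes the pore-forming protein perforin-2, had the most bases under peaks of all 37 genes, 2667 in Wtap flox/flox versus 3620 in Wtap-BKO, in fewer but longer peaks in Wtap-BKO. Wtap flox/flox had 6 peaks of 211 to 748 bases with ranks from 16.6 to 73.9. Wtap-BKO had 3, and chr19:12461159-12463730 alone spans 2572 bases, covers 4 of the 6 Wtap flox/flox peaks and has a rank of 97.0. All 2667 bases of Wtap flox/flox were shared. Lyz2, lysozyme M, had the same peak in both lists to the base, chr10:117282142-117282321, with its centre 40.5 bp from the 5ʹ end, and its rank was 85.3 in Wtap flox/flox versus 97.4 in Wtap-BKO. Cybb, the catalytic subunit of the phagocyte NADPH oxidase, had 1 Wtap flox/flox peak of 151 bases (rank 20.4) and 3 Wtap-BKO peaks, the one over it with 270 bases (rank 82.4). Gpnmb, a glycoprotein of lipid-laden macrophages, had 1 peak in each list, 181 bases (rank 24.3) and 270 bases (rank 45.5). Ctss, the lysosomal protease cathepsin S, and Laptm5, a lysosomal membrane protein of blood cells, had none in Wtap flox/flox. Ctss had 1 Wtap-BKO peak of 267 bases in 3 blocks, chr3:95526815-95538749 (rank 49.7), and Laptm5 had 2, chr4:130934680-130934769 (rank 20.8) and chr4:130935068-130935217 (rank 32.1).

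Taken as a class, the macrophage peaks overlapped in one direction. All 30 Wtap flox/flox peaks were found in the Wtap-BKO list, so 0% were missing, with a Wilson interval up to 11.4%, beside 32.2% of all Wtap flox/flox peaks. No Wtap flox/flox peak lay on 26 of the 52 Wtap-BKO peaks (50%, interval 36.9% to 63.1%), beside 32% of all Wtap-BKO peaks. Of these 26, 17 lay on 7 genes that had a Wtap flox/flox peak elsewhere and 9 on the 5 genes without one. Those 9 had no Wtap flox/flox peak of their own gene to match, since their genes entered through Wtap-BKO peaks alone. The 50% and its interval include them, so nothing is read from their distance to the 32%. On the 17 genes with peaks in both lists, 26 Wtap-BKO peaks lay on a Wtap flox/flox peak and 17 did not. In bases, 94.6% of those under Wtap flox/flox peaks were shared on the 17 genes with peaks in both lists, and 52.9% of those under Wtap-BKO peaks. The same shares over all genes are not given here, so nothing is read from these 2 values. More bases were under Wtap-BKO than under Wtap flox/flox peaks for 19 of the 22 genes, beside 44.1% of all genes. The exceptions were Fcgr1 and Itgam, with fewer, and Lyz2, with the same number. Summed, macrophage genes had 8321 bases under Wtap flox/flox and 16652 under Wtap-BKO peaks, a ratio of 2.001, where all genes together had 0.909. These counts include the 5 genes listed in Wtap-BKO alone, which could only have more bases there. On the 17 genes with peaks in both lists, 14 had more bases in Wtap-BKO and the ratio was 1.79, where all such genes had 0.917.

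**Figure D2:**
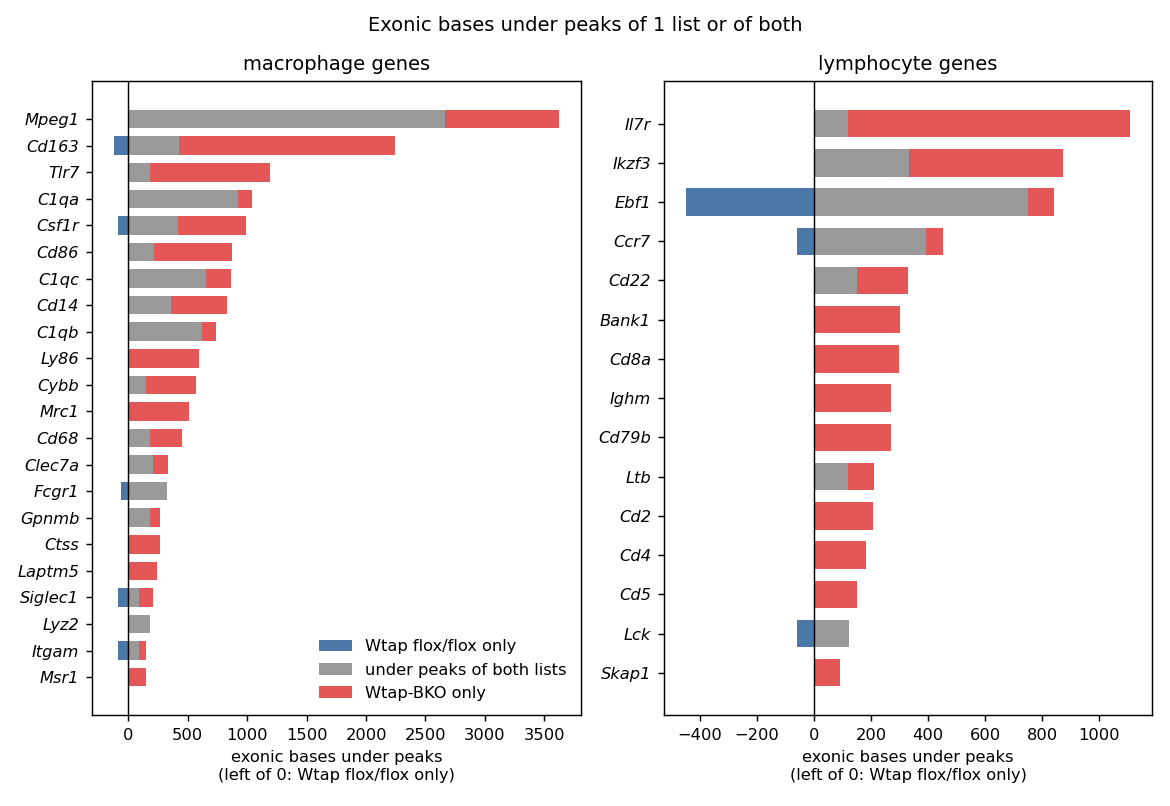
Exonic bases under peaks for each macrophage gene (left) and lymphocyte gene (right), split into bases under peaks of both lists (grey), of Wtap-BKO alone (red) and of Wtap flox/flox alone (blue, drawn to the left of 0). Blue stretches occur on 5 macrophage genes, Cd163, Csf1r, Fcgr1, Itgam and Siglec1, and on 3 lymphocyte genes, of which Ebf1 has the longest, 450 bases.

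Each Wtap flox/flox peak was then set beside the Wtap-BKO peak that shared most of its bases, which gave 30 pairs on macrophage genes. The pairs are not independent, since 4 of them share the long Mpeg1 peak and 2 the C1qa peak, and the 2 Cd86 pairs overlap each other. The Wtap-BKO peak had the higher rank in 28 of 30 pairs (93.3%, interval 78.7% to 98.2%), beside 56% of all matched peaks. It was the longer one in 26 of 30, beside 41.2% of all matched peaks. Over the pairs, the median rank was 41.1 for the Wtap flox/flox and 84.6 for the Wtap-BKO peaks, beside 60.8 and 65.2 for all matched peaks. With each of the 26 Wtap-BKO peaks on a Wtap flox/flox peak counted once, their median rank was 77.0. The median difference in length within a pair was 103.5 bases, longer in Wtap-BKO, beside 0 for all matched peaks. By fold enrichment the count was smaller. The fold rank was higher in Wtap-BKO in 17 of 30 pairs (56.7%, interval 39.2% to 72.6%), beside 50.8% of all matched peaks. The fold rank was lower in Wtap-BKO for Cd68, Fcgr1, Gpnmb, Itgam, Siglec1, both Cd86 pairs and some pairs of C1qa, Cd163, Csf1r and Mpeg1. With the Csf1r peak beyond the gene end left out, which was decided after the pairs had been seen, the higher rank was in Wtap-BKO for 28 of 29 pairs.

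**Figure D3:**
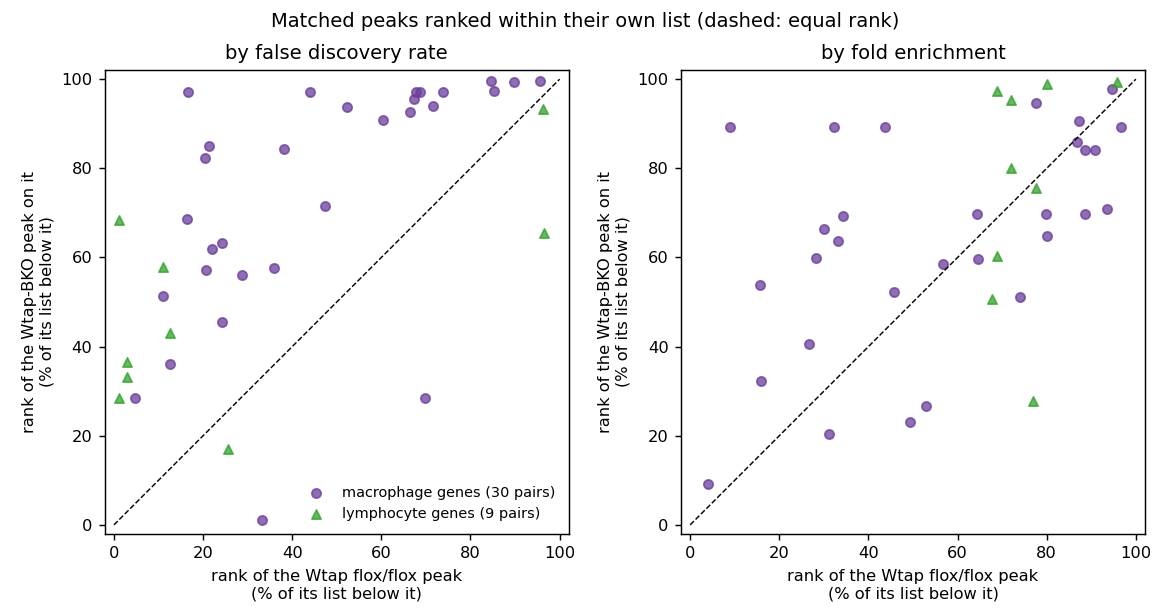
Rank of each Wtap flox/flox peak (x axis) and of the Wtap-BKO peak on it (y axis), as the percentage of peaks of the own list below it by false discovery rate (left) or by fold enrichment (right), for 30 macrophage pairs (circles) and 9 lymphocyte pairs (triangles). On the left, 28 circles lie above the dashed line of equal rank, and on the right 17.

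The peaks of a gene could be laid out along its 3ʹ part. The layout of Mpeg1, Tlr7, Cd14 and Cybb shows wider Wtap-BKO peaks over Wtap flox/flox ones and further Wtap-BKO peaks beside them. On macrophage genes, 8 of 30 Wtap flox/flox peaks (26.7%) were centred less than 1000 bp from the 3ʹ end, as were 14 of 52 Wtap-BKO peaks (26.9%), where all peaks had 21.8% and 19.4%. These distances run along the genome and include introns. Stop codons and untranslated regions were not analysed here.

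**Figure D4:**
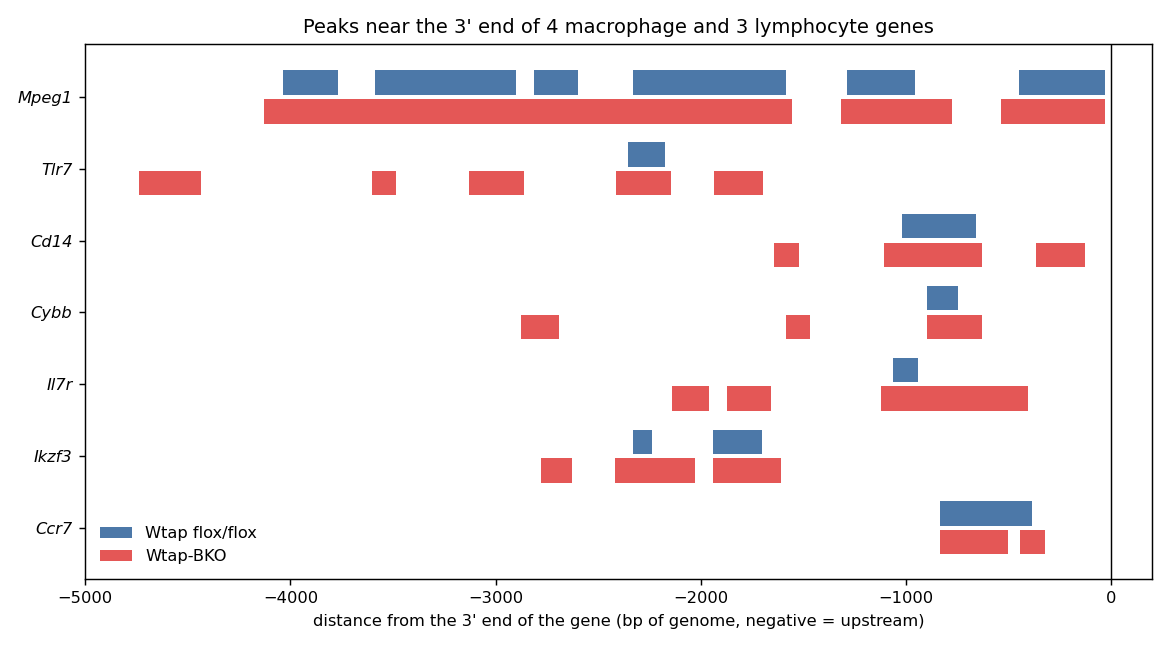
Peaks towards the 3ʹ end of Mpeg1, Tlr7, Cd14 and Cybb (macrophage genes) and of Il7r, Ikzf3 and Ccr7 (lymphocyte genes), with Wtap flox/flox in blue and Wtap-BKO in red. The x axis is the distance along the genome from the annotated 3ʹ end, which is at 0. A Wtap-BKO peak of 2572 bases spans 4 Wtap flox/flox peaks of Mpeg1, and on Tlr7 4 Wtap-BKO peaks lie where Wtap flox/flox has none.

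Among the lymphocyte genes, the T cell genes Cd4, Cd8a, Cd2, Cd5 and Skap1 were listed in Wtap-BKO alone, beside 13.2% of all genes. They entered the set through these peaks, so nothing is read from their number. Cd4, the co-receptor for class II molecules on helper T cells, had 1 Wtap-BKO peak, chr6:124865767-124865946 (rank 32.3). Cd8a, a chain of the co-receptor for class I molecules on cytotoxic T cells, had 1, chr6:71373546-71373844 (rank 35.2), with its centre 268 bp from the 5ʹ end of the gene. Cd2, an adhesion receptor, had 1, chr3:101287556-101287762 (rank 53.1), and its p-value and fold enrichment were shared by no other peak of the list. Cd5, a receptor that dampens antigen receptor signalling, had 1 Wtap-BKO peak, chr19:10718203-10718353, of rank 9.83. Skap1, an adaptor of T cell adhesion, had 1, chr11:96758740-96758830, of rank 1.35, the lowest of all Wtap-BKO lymphocyte peaks. Lck, the kinase that starts T cell receptor signalling, had a peak in both lists, of 180 bases in Wtap flox/flox (rank 1.10) and of 121 bases in Wtap-BKO (rank 28.6), the latter lying wholly inside the former.

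B cell genes included the strongest lymphocyte peak in Wtap-BKO alone. Ighm (ENSMUSG00000076617), the heavy chain of IgM, had 1 Wtap-BKO peak, chr12:113420857-113421126, with a rank of 78.8 and no other peak of equal p-value and fold enrichment. Cd79b, a signalling chain of the B cell receptor, had 1, chr11:106311371-106311639 (rank 43.7), with its centre 164 bp from the 3ʹ end. Bank1, a scaffold of B cell receptor signalling, had 2, chr3:136053872-136054082 (rank 36.6) and chr3:136093410-136093500 (rank 11.1). Cd22, an inhibitory receptor of B cells, had a peak in both lists from the same 3ʹ base, 150 bases in Wtap flox/flox (rank 2.96) and 329 in Wtap-BKO (rank 36.6). Apart from Ighm, these peaks ranked below the middle of the Wtap-BKO list.

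Ebf1 (ENSMUSG00000057098), a transcription factor that commits cells to the B lineage and is also made by adipocytes and their precursors, stood apart from the other lymphocyte genes. It had 4 Wtap flox/flox peaks covering 1200 bases and 2 Wtap-BKO peaks covering 840. The strongest Wtap flox/flox peaks, chr11:44996044-45004979 and chr11:45006924-45007283, had ranks of 96.5 and 96.3, and the Wtap-BKO peaks on them 65.4 and 93.4. The other 2 Wtap flox/flox peaks, chr11:44617317-44617556 (rank 58.0) and chr11:45007463-45007642 (rank 49.6), were the only peaks of the 37 genes without a Wtap-BKO peak on them. The first of these has its centre at −663.5 bp from the annotated 5ʹ end, that is before the gene begins. No other lymphocyte gene had a Wtap flox/flox peak of a rank above 25.5.

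Genes used by both T and B cells had weak Wtap flox/flox peaks and longer Wtap-BKO peaks in most cases. Il7r (ENSMUSG00000003882), the receptor chain for the survival cytokine interleukin-7, had 1 Wtap flox/flox peak of 120 bases, chr15:9507103-9507222 (rank 10.9), and 3 Wtap-BKO peaks covering 1108 bases, the largest ratio of covered bases among the 37 genes, 9.23. The Wtap-BKO peak over it, chr15:9506565-9507282, covered 718 bases (rank 57.9), and the other 2 had ranks of 18.8 and 34.5. Ikzf3 (ENSMUSG00000018168), the transcription factor Aiolos, had 2 Wtap flox/flox peaks of 241 and 91 bases (ranks 12.6 and 1.10) and 3 Wtap-BKO peaks of 331, 390 and 151 bases (ranks 43.0, 68.5 and 26.2). Ltb, the cytokine lymphotoxin beta, had a peak of 120 bases (rank 2.96) that lay inside the Wtap-BKO peak of 209 bases (rank 33.3). Ccr7, the receptor that guides lymphocytes to lymph nodes, was the exception, with nearly equal coverage, 451 bases in 1 Wtap flox/flox peak (rank 25.5) and 452 in 2 Wtap-BKO peaks (ranks 32.3 and 17.1).

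As a class, lymphocyte peaks gave smaller shares than macrophage peaks in the matched pairs, and the difference between the classes was not tested. Of 11 Wtap flox/flox peaks, 2 (18.2%, interval 5.14% to 47.7%) were not found in Wtap-BKO, both on Ebf1, beside 32.2% of all Wtap flox/flox peaks. No Wtap flox/flox peak lay on 12 of 22 Wtap-BKO peaks (54.5%, interval 34.7% to 73.1%), beside 32% of all Wtap-BKO peaks. Of these 12, 9 lay on the 8 genes without a Wtap flox/flox peak and 3 on Ikzf3 and Il7r. Those 9 had no Wtap flox/flox peak of their own gene to match, since their genes entered through Wtap-BKO peaks alone. The 54.5% and its interval include them, so nothing is read from their distance to the 32%. On the 7 genes with peaks in both lists, 10 Wtap-BKO peaks lay on a Wtap flox/flox peak and 3 did not. The Wtap-BKO peak had the higher rank in 6 of 9 pairs (66.7%, interval 35.4% to 87.9%), beside 56% of all matched peaks, and was the longer in 6 of 9, beside 41.2%. The 3 pairs of lower rank were 2 of Ebf1 and 1 of Ccr7, and without Ebf1, left out after its values were seen, 6 of 7 pairs (85.7%) ranked higher and 0 of 7 Wtap flox/flox peaks were missing. Bases under peaks summed to 2553 and 5700, a ratio of 2.23, and 13 of 15 genes had more in Wtap-BKO, all but Ebf1 and Lck, beside 44.1% of all genes. The 8 genes listed in Wtap-BKO alone could only have more there. On the 7 genes with peaks in both lists, 5 had more and the ratio was 1.54. Centres less than 1000 bp from the 3ʹ end were counted for 6 of 11 Wtap flox/flox peaks (54.5%) and for 11 of 22 Wtap-BKO peaks (50%).

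The median macrophage peak had a fold enrichment of 7.41 in Wtap flox/flox (1.93 to 27.4), and of 5.89 in Wtap-BKO (1.55 to 26.4). For lymphocyte genes the medians were 11.2 (3.1 to 24.9) and 11.75 (3 to 42.5), where all peaks had 6.58 and 4.65. The lowest value was that of a Laptm5 peak and the highest that of the Ebf1 peak at chr11:45006894-45007343 in Wtap-BKO, whose Wtap flox/flox counterpart had 24.9. The peak of Lyz2 had 23.0 in Wtap flox/flox versus 26.4 in Wtap-BKO, and that of Ighm 4.68. The lists were called separately, so these values are set side by side and not divided.

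Many of these peaks carry values that other peaks of the list carry too. A p-value and fold enrichment identical to those of at least 5 other peaks of the list were found on lymphocyte genes for 7 of 11 Wtap flox/flox peaks (63.6%) and 13 of 22 Wtap-BKO peaks (59.1%), where all peaks had 20.3% and 18.2%. The Wtap flox/flox peaks of Cd22 and Ltb had the same p-value and a fold enrichment of 11.2, and each was tied with 112 other peaks of the list. The Wtap-BKO peaks of Cd4, Ccr7 and Tlr7 of rank 32.3 all had a fold enrichment of 19.0. For macrophage genes the share was 11 of 30 in Wtap flox/flox and 5 of 52 in Wtap-BKO (36.7% and 9.62%). Ranks of tied peaks do not order them. With every peak left out that was tied with 1 or more other peaks, a choice made after the data were seen, Cd2 and Ighm remained of the 8 lymphocyte genes in Wtap-BKO alone, and Ctss, Laptm5, Ly86 and Mrc1 of the 5 macrophage genes.

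Peaks were also counted under a stricter limit. Under a false discovery rate of 1e-05, macrophage genes kept 16 Wtap flox/flox peaks, compared with 36 in Wtap-BKO, and lymphocyte genes 4 and 8, the 4 being those of Ebf1. The whole lists kept 11602 Wtap flox/flox and 10911 Wtap-BKO peaks, a ratio of 0.94. At that limit in both lists, 10 of 19 macrophage genes had peaks in Wtap-BKO alone, namely Cd163, Cd86, Clec7a, Ctss, Cybb, Gpnmb, Ly86, Mrc1, Siglec1 and Tlr7. Of 6 lymphocyte genes, 5 did, namely Cd2, Cd79b, Ighm, Ikzf3 and Il7r. Over all genes the share was 13.1%. No peak of either list was under that limit for 3 macrophage genes, Itgam, Laptm5 and Msr1, and for 9 of the 15 lymphocyte genes. The median macrophage peak covered 209.5 bases in Wtap flox/flox versus 239 in Wtap-BKO, the median lymphocyte peak 180 and 210.5, and the median of all peaks 240 and 210.

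Other lists, which hold none of the 37 genes, were counted in the same way. They are named for macrophages, complement, T cells, B cells and leukocytes. Not every gene in them is made by these cells alone, so their shares may include other cell types. Of 49 other macrophage genes, 37 had a peak, 25 in both lists, 11 in Wtap-BKO alone and 1, the adaptor Myd88, in Wtap flox/flox alone. Those in Wtap-BKO alone with the strongest peaks were H2-Ab1 and H2-Eb1, chains of class II molecules, with ranks of 84.3 and 78.5, the metal transporter Slc11a1 (rank 78.6), the integrin chain Itgb2 (rank 66.1), the receptor chain Csf2ra (rank 60.8) and the protease Ctsk (rank 45.8). Their 35 matched pairs ranked higher in Wtap-BKO in 32 cases. Adgre1, which encodes the macrophage antigen F4/80, had no peak in either list. Of 18 complement genes, 12 had a peak, 9 in both lists and 3 in Wtap-BKO alone, of which Cd55, an inhibitor of complement, passed 1e-05 (rank 54.0), and all 18 pairs ranked higher in Wtap-BKO. Of 37 further T cell genes, 17 had a peak, 9 in both and 8 in Wtap-BKO alone, with the transcription factor Tcf7 (rank 46.5) and the activation marker Cd69 (rank 43.7) under 1e-05, and 12 of 13 pairs (92.3%) ranked higher in Wtap-BKO. Of 25 further B cell genes, 7 had a peak and all 7 in both lists, and 6 of 8 pairs (75%) ranked higher. The defining markers Cd3d, Cd3e, Cd3g, Ms4a1 and Cd79a had none, while Igkc, the kappa light chain of antibodies, had 1 peak in each, with a log10 false discovery rate of −111 in Wtap flox/flox and a listed rate of 0 in Wtap-BKO. Of 17 genes of all leukocytes, 12 had a peak, 9 in both and 3 in Wtap-BKO alone, and 11 of 12 pairs (91.7%) ranked higher.

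Markers of other cell types give the frame for these values. All 15 fibroblast markers that had a peak had it in both genotypes, with 25 peaks in Wtap flox/flox versus 37 in Wtap-BKO, and 24 of their 25 pairs (96%, interval 80.5% to 99.3%) ranked higher in Wtap-BKO. Endothelial and mural cell markers went from 33 to 45 peaks, with Emcn (rank 49.1) in Wtap-BKO alone under 1e-05, and 24 of 30 pairs (80%) ranked higher. Skeletal muscle markers went from 7 to 24 peaks, with 9 of 16 genes in Wtap-BKO alone, the strongest being Tnnt3, Mb, Casq1, Tnnc2, Tnni2 and Pvalb, and 7 of 7 pairs ranked higher. Skeletal muscle is not among the cell types that the paper names in iBAT, and how its transcripts entered the pools was not tested. Brown adipocyte markers went from 61 to 52 peaks, with Elovl3 in Wtap flox/flox alone, and 25 of 44 pairs (56.8%, interval 42.2% to 70.3%) ranked higher. A higher rank in Wtap-BKO was therefore seen for markers of several cell types beside macrophages. Neutrophil and mast cell markers had a peak for 4 of 20 genes, 3 of them in Wtap-BKO alone, among them the mast cell protease Mcpt4 (rank 63.1) and the metalloproteinase Mmp9 (rank 42.2). Dendritic and natural killer cell markers had a peak for 9 of 16, 7 in Wtap-BKO alone, of which Clec9a (rank 49.3) passed 1e-05. The part of cell composition in any of these counts was not tested, and methylation and transcript level cannot be told apart in the lists.

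**Figure D5:**
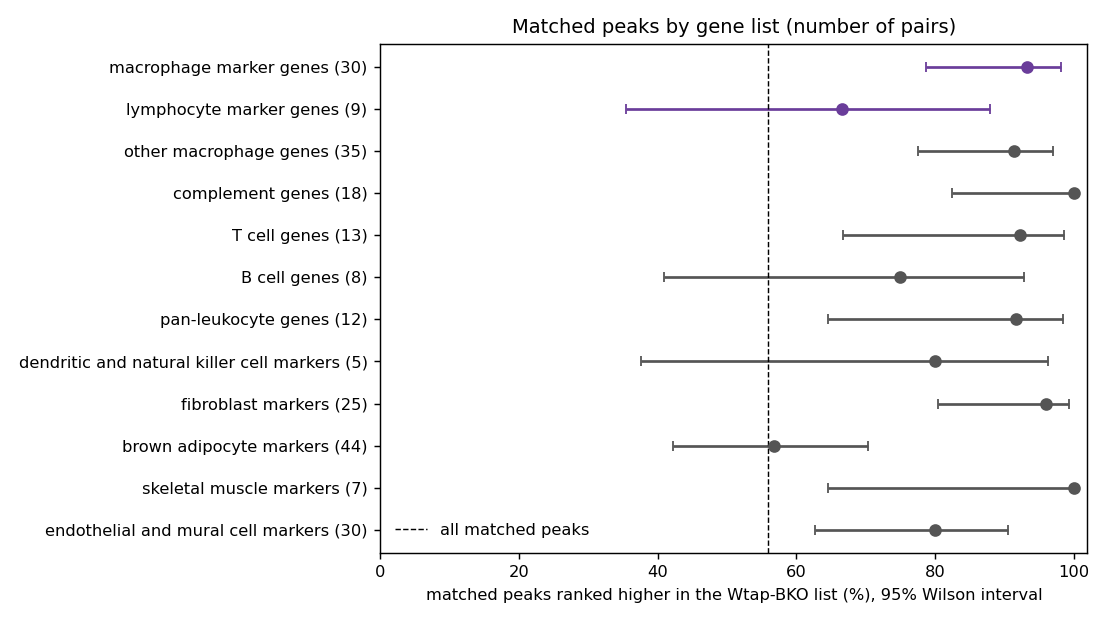
Share of matched peaks that rank higher in the Wtap-BKO than in the Wtap flox/flox list by false discovery rate, for each gene list with at least 5 pairs, with the number of pairs in parentheses and bars for the 95% Wilson interval, which covers counting error only. The macrophage genes lie at 93.3%, the lymphocyte genes at 66.7% (85.7% without Ebf1, not drawn), brown adipocyte markers at 56.8% and fibroblast markers at 96%, and the dashed line marks all matched peaks at 56%.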

How the data were processed

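Peak lists of both genotypes were analysed as deposited. Reads were 150 bp and paired; the submitters' processing notes name fastp 0.19.11, BWA 0.7.12, HOMER 4.9.1 and GRCm38.p6. The study's methods name MACS2 for peak calling, while the column layout with spliced blocks is that of exomePeak, so the caller is uncertain. The authors filtered at a false discovery rate under 0.05. The deposited score column is the authors' p-value of a peak. The authors' log10 false discovery rate was read as a score, and the deposited fold enrichment is a ratio of IP over input of unstated scaling. Starts, counted from 0 in the lists, were moved to 1-based positions.

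Peaks were assigned to genes by the listed symbol, and the distance from gene ends used a RefSeq gene table of GRCm38.p6, which held all 115 member peaks. Overlap, coverage, ranks, ties and pairs were computed in Python 3.11.15 with numpy 2.4.6 and figures with matplotlib 3.10.9. The overlap search was run on simulated data in which 18400 peaks were kept, shortened or removed, and found 100% as simulated. This checks the code alone, since shifted or split peaks and matches to other peaks were not simulated. Samples were grouped by their titles. With 1 pooled sample a genotype no test was made. Genes named are the 37 members and, of each other list, up to 6 genes in 1 list alone, those in Wtap-BKO under 1e-05. Adgre1, Igkc and the lymphocyte markers without a peak were named outside this rule, after their values were seen. Members and lists were chosen with earlier results of these data known. Depth is unknown, as no read counts are listed. Sequences of the peaks were not analysed here.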

Additional observations from a re-analysis of the deposited data

How the results depend on the processing

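Macrophage genes in Wtap-BKO alone numbered 5, 10 under a false discovery rate of 1e-05 in both lists, 4 under 1e-10 and 11 without tied peaks. Of the original 5 genes, 3 were among the 10, 0 among those under 1e-10 and 4 among the 11. The others had Wtap flox/flox peaks that the setting left out. Lymphocyte genes in Wtap-BKO alone numbered 8, 5 under 1e-05, 2 under 1e-10 and 4 without tied peaks. The share of macrophage Wtap-BKO peaks not found in Wtap flox/flox was 50%, 17.3% when any peak on the same gene counted, and 66.7% under 1e-05 in both lists. For lymphocyte Wtap-BKO peaks it was 54.5%, and 75% under 1e-05 in both lists. The shares of both classes include peaks on genes listed in Wtap-BKO alone, which had no Wtap flox/flox peak of their gene to match. Lymphocyte Wtap flox/flox peaks not found in Wtap-BKO made up 18.2%, 0% when any peak on the same gene counted, 0% without Ebf1, and 50% (2 of 4, all of Ebf1) under 1e-05, whether searched among all peaks or among those under 1e-05. Macrophage pairs with the higher Wtap-BKO rank made up 93.3% by false discovery rate and 56.7% by fold enrichment. Leaving out tied peaks, Ebf1 or Cd163, Tlr7 and Cd86, with 8, 5 and 4 Wtap-BKO peaks (Csf1r also has 4), was chosen after seeing the data. The ratios of Wtap-BKO to Wtap flox/flox peaks, 1.73 for macrophage and 2 for lymphocyte genes, stayed between 1.73 and 2.25 under 1e-05 and with neighbouring peaks merged. These ratios include the 5 macrophage and 8 lymphocyte genes listed in Wtap-BKO alone, which could only raise them. No paired analysis was possible because each genotype has 1 pooled sample. Unknown depth limits every comparison between the lists.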
